A study of Homo sapiens with 6 samples.

Results

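The early growth response genes EGR1, EGR2, EGR3 and EGR4, their corepressors NAB1 and NAB2, and the serum response factor SRF were followed in THP-1, a line of human monocytic leukemia cells. The 7 genes were taken by symbol from the 61267 genes of the deposited count table. They were chosen because EGR1 was lower in the KD libraries while most immediate-early genes were higher. Every difference of these 7 genes between KD and NC is therefore given as a description, without a p. Where those past the threshold are counted, the counts are not used as support. The EGR proteins are zinc finger transcription factors that bind GC-rich sites. EGR1 is a classical immediate-early gene: a growth factor or phorbol ester signal runs through Ras and ERK to SRF and its ETS-type partners, which sit on CArG boxes of the EGR1 promoter. NAB1 and NAB2 bind EGR1, EGR2 and EGR3 and repress their activity, and NAB2 is itself induced by EGR factors, which closes a feedback loop. In the monocytic lineage EGR1 and EGR2 are known for their part in differentiation towards macrophages.

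RNA was sequenced from 3 libraries labelled KD and 3 labelled NC. All 6 came from cells made adherent by 48 h with 100 ng/ml of PMA, a phorbol ester. The labels give KD no target and do not say how either group was made, nor whether the 3 samples of a group were separate cultures, so a p here reflects only how far these 6 samples vary, and that variation may be technical. The series title names METTL1, an m7G methyltransferase of tRNA, which had 567, 528 and 524 counts in KD and 596, 653 and 642 in NC (log2 fold change -0.10, SE 0.0765, edgeR adjusted p = 0.216). Every direction given here is that of libraries carrying the label KD relative to those carrying NC.

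Total counts per library lay between 37628972 and 42970216. The groups differed across most of the transcriptome: of 21905 tested genes 76.5% passed, and 36.2% were higher and 40.3% lower in KD (edgeR quasi-likelihood test, adjusted p at or below 0.05). Of 14 monocyte and macrophage markers, 12 were higher in KD and 0 lower, and their summed level was 1782 to 1863 CPM in KD and 1037 to 1099 CPM in NC (scaled by library size). CD14 (24.8 CPM in KD, 11.2 CPM in NC), SPI1 (288 and 137 CPM) and CSF1R (262 and 143 CPM) were present in both groups. Markers of neural and epithelial cells of the HEK293 type went the other way. Of 24, 21 were lower in KD and 1, NEFH, was higher, with a sum of 228 to 248 CPM in KD and 3357 to 3714 CPM in NC. In KD, 8 of them had no count in any library, among them LIN28B and POU3F3, while in NC each of the 24 had counts, with NEFM at 1698 CPM (0.365 CPM in KD). The NC libraries thus carried many transcripts not usual for the labelled cell type, and the KD libraries carried NEFH (190 CPM in KD and 80.9 CPM in NC). The marker lists were chosen with earlier results of these data known, so these counts are only a description. Of 60 leukocyte-restricted genes 55 were higher in KD and 0 lower (11600 to 11720 CPM in KD and 5262 to 5338 CPM in NC). Of the 10 fibroblast and smooth muscle markers 5 were tested, with 2 higher and 2 lower, and they summed to 105 to 107 CPM in KD and 41.3 to 44.7 CPM in NC, with LUM at 0 in KD. The largest part of this sum was PDGFRA (94.7 CPM in KD and 23.2 CPM in NC). Of the 12 T, NK and B cell markers 4 were tested, with 1 higher and 2 lower, and they summed to 10.9 to 12.8 CPM in KD and 7.494 to 7.999 CPM in NC, with CD3D, CD3E and CD3G at 0 in KD and CD3E, CD3G, CD2 and MS4A1 at 0 in NC. The part of these markers in the differences of the EGR, NAB and SRF genes was not tested. In bulk RNA, fewer cells of a type and less RNA per cell cannot be told apart. A second scaling, called the leukocyte scale here, was therefore set beside the scaling over all tested genes (TMM). The leukocyte scale sets the 60 leukocyte-restricted genes level between the groups only on average: 19 of them were still higher and 20 lower in KD. On it 3.63% of the tested genes were higher and 83.1% lower in KD, and the median log2 fold change of all tested genes was -1.23, against -0.05 with TMM. METTL1 was then lower in KD, at -1.29 (SE 0.0759, edgeR adjusted p = 5.14e-14), close to that median, so its call depends on the scaling.

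EGR1 (chromosome 5, 138465479 to 138469303, plus strand, GRCh38, 2 exons) was the only one of the 7 genes that was lower in KD with TMM. It had 468, 453 and 432 counts in the KD libraries, against 2341, 2432 and 2591 in the NC libraries. Every KD library was below every NC library by a wide margin, and the libraries of a group lay close together. Scaled to library size and TMM factor (CPM), this gave 11.5 ± 0.48 CPM in KD and 57.4 ± 1.90 CPM in NC (SD, n = 3 each), a level 5.01-fold lower in KD. As a log2 fold change of KD over NC this came to -2.32 (SE 0.0578). Of the tested genes 10.4% had a lower log2 fold change. On the leukocyte scale EGR1 was at -3.51. EGR1 was below the median of all tested genes on both scales (-0.05 and -1.23). The change of scale moves all genes by nearly the same amount, so the second scale is no separate check of this.

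**Figure D1:**
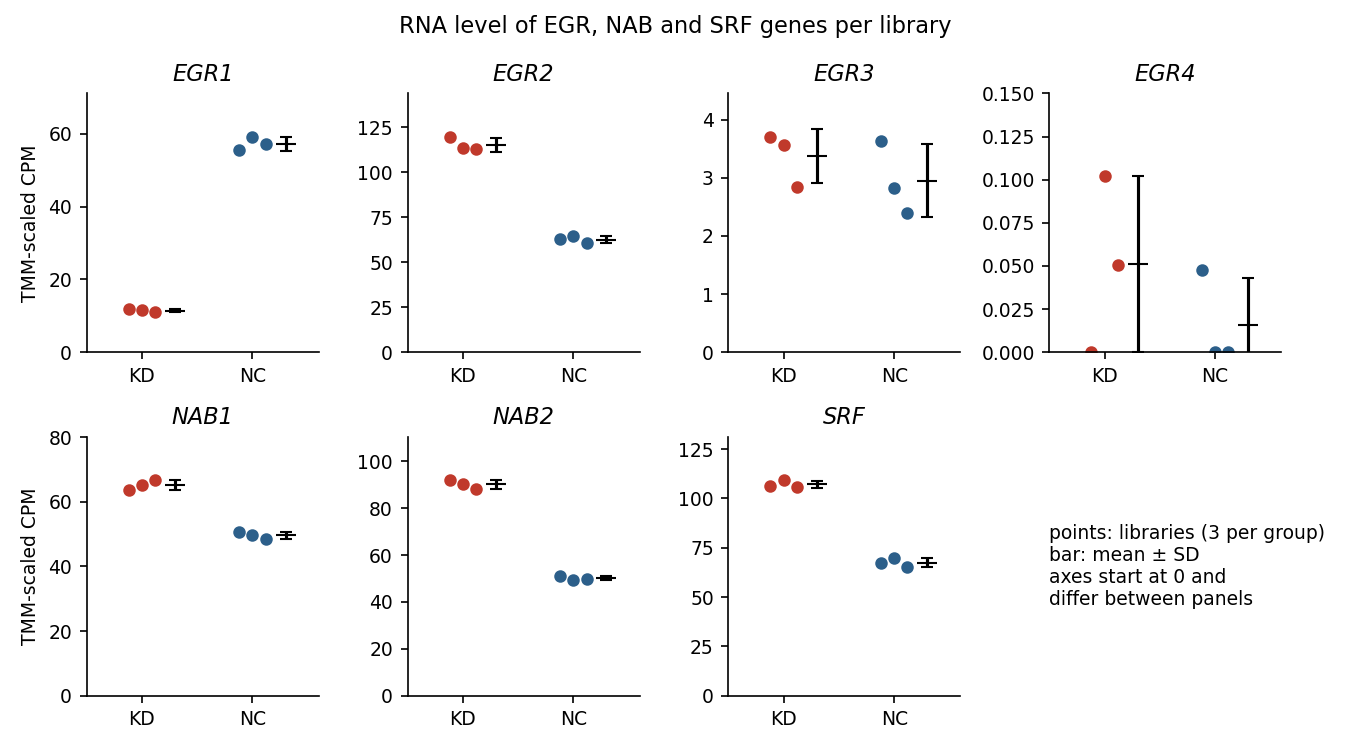
TMM-scaled CPM of the 7 genes, 1 panel a gene, with the 3 KD libraries left of the 3 NC libraries and the mean ± SD beside them. EGR1 is lower in KD, EGR2, NAB1, NAB2 and SRF are higher in KD, and the groups overlap for EGR3 and EGR4.

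EGR2 (chromosome 10, 62811996 to 62819167, minus strand, 4 exons), a close relative that binds the same kind of site, went the other way. It had 4715, 4446 and 4452 counts in KD and 2645, 2637 and 2743 in NC. The groups did not overlap. EGR2 stood at 115 ± 3.87 CPM in KD and 62.5 ± 1.81 CPM in NC (SD, n = 3 each), and its log2 fold change was 0.88 (SE 0.0425). Its sign turned on the leukocyte scale, to -0.31, where the median of all tested genes was -1.23. Of its 3707 exon bases, 145 also lie in exons of the unnamed gene ENSG00000289487 on the same strand, which had 178, 181 and 188 counts in KD and 92, 100 and 104 in NC.

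EGR3 (chromosome 8, 22687659 to 22693480, minus strand), a further member, studied mainly in lymphocytes and muscle spindles, was low. It had 146, 140 and 112 counts in KD and 153, 116 and 108 in NC, and the groups overlapped. The level was 3.37 ± 0.468 CPM in KD and 2.95 ± 0.627 CPM in NC (SD, n = 3 each), and the log2 fold change of 0.20 was close to its SE of 0.166. With library sizes alone it was 0.0081, and on the leukocyte scale -0.99. Of the EGR3 exon bases, 164 are shared with ENSG00000253125 on the other strand, which had at most 10 counts in a library.

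EGR4 (chromosome 2, 73290929 to 73293701, minus strand), known mainly from the nervous system and germ cells, was close to absent. Its counts were 0, 4 and 2 in KD and 2, 0 and 0 in NC, and it did not pass the filter on low counts. The ratio of the summed counts, 6 in KD and 2 in NC, was 3.26 (95% exact binomial interval 0.583 to 33.0, counting error only), so that no difference was detectable at this depth. Even numbers made up 67.8% to 70.3% of a library's counts from 1 to 20 and 50.2% to 51.4% of its counts over 1000, so low counts do not behave as single reads counted independently, and the interval is too narrow by an amount that was not tested.

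The sum of the 4 EGR genes was nearly the same in the groups with TMM, while its make-up was not. In RPKM on the TMM scale (TMM-scaled CPM per kilobase of exon), the sum was 36.8, 35.0 and 34.5 in KD and 35.3, 36.8 and 35.1 in NC. The groups overlapped, with means of 35.4 ± 1.23 in KD and 35.7 ± 0.918 in NC (SD, n = 3 each). The sum depended on the scaling: with library sizes alone it was 33.2 ± 0.725 in KD and 38.2 ± 1.72 in NC, and on the leukocyte scale 23.5 ± 1.02 in KD and 54.0 ± 0.956 in NC. The shares within a library do not depend on any scaling. EGR1 made up 10.3% ± 0.202 of the EGR counts per exon base in KD and 51.1% ± 1.01 in NC, and EGR2 made up 87.7% ± 0.429 in KD and 47.2% ± 0.623 in NC. EGR3 took 1.89% ± 0.219 in KD and 1.64% ± 0.357 in NC. The KD libraries thus held mostly EGR2 among the EGR transcripts, whereas EGR1 and EGR2 were about level in NC.

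**Figure D2:**
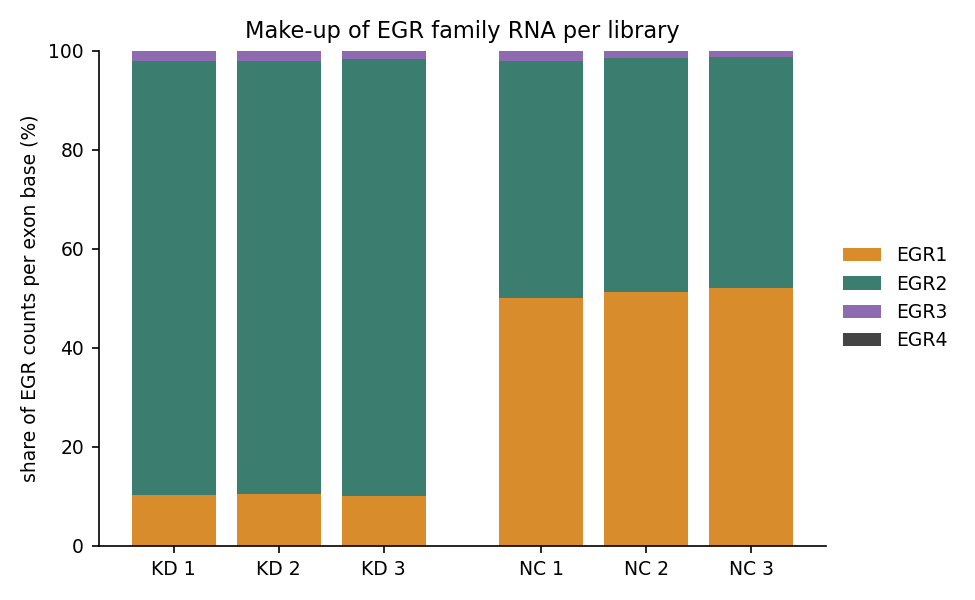
Share of each EGR gene in the summed EGR counts per exon base, in percent, 1 bar a library with the 3 KD libraries on the left. EGR1 takes 10.1% to 10.5% of each KD bar and 50.05% to 52.03% of each NC bar, and EGR4 is too low to be seen.

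NAB2 (chromosome 12, 57089043 to 57095476, plus strand, 7 exons), the inducible corepressor, had 3623, 3548 and 3478 counts in KD and 2155, 2028 and 2246 in NC. All 3 KD libraries were above all 3 NC libraries. The level was 90.2 ± 1.98 CPM in KD and 50.1 ± 0.885 CPM in NC (SD, n = 3 each), a log2 fold change of 0.85 with an SE of 0.0425, and -0.34 on the leukocyte scale. NAB2 and STAT6 lie on opposite strands and share 69 bases of exon, 2.41% of the NAB2 exons. STAT6 had 7586, 7729 and 7772 counts in KD and 4474, 4229 and 4567 in NC. Whether counting used strand is not stated in the labels or files, so reads in the shared bases cannot be assigned to either gene.

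NAB1 (chromosome 2, 190646746 to 190692766, plus strand, 13 exons), which is known to be made more constantly than NAB2, was also higher with TMM. It had 2515, 2561 and 2637 counts in KD and 2141, 2040 and 2188 in NC. The groups did not overlap. With TMM the step was smaller than those of EGR2, NAB2 and SRF, while on the leukocyte scale it was larger than theirs. NAB1 stood at 65.3 ± 1.45 CPM in KD and 49.6 ± 1.18 CPM in NC (SD, n = 3 each), with a log2 fold change of 0.40 (SE 0.0443) and of -0.79 on the leukocyte scale. A gene on the other strand, ENSG00000228509, shares 589 exon bases, 12.1% of the NAB1 exons, and had 1117, 1111 and 1131 counts in KD and 739, 725 and 765 in NC. A further one, ENSG00000284052, shares 10 bases and had 68, 74 and 82 counts in KD and 55, 63 and 60 in NC.

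SRF (chromosome 6, 43171269 to 43181506, plus strand, 7 exons), the MADS-box factor that binds CArG boxes, had 4190, 4287 and 4176 counts in KD and 2846, 2855 and 2940 in NC. Its groups did not overlap. The level was 107 ± 1.90 CPM in KD and 67.4 ± 2.29 CPM in NC (SD, n = 3 each), a log2 fold change of 0.67 with an SE of 0.0417, and -0.52 on the leukocyte scale. Exons of SRF, EGR1 and EGR4 overlapped those of no other gene in the table.

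Of the 7 genes 6 passed the filter on low counts. With TMM 4 of them were higher and 1 lower past the threshold, beside 36.2% and 40.3% of all tested genes, and the groups of 5 did not overlap, as held for 78.0% of all tested genes. With library sizes alone 4 were again higher and 1 lower, beside 28.4% and 47.3% of all tested genes (75.7% in either direction). The leukocyte scale gave 0 higher and all 6 lower, beside 3.63% and 83.1% of all tested genes (86.7% in either direction). On that scale EGR1 alone of the 6 was below the median of all tested genes, -1.23. With TMM the share of tested genes with a lower log2 fold change was 84.3% for EGR2 and 83.3% for NAB2. It was 78.0% for SRF, 68.5% for NAB1 and 60.1% for EGR3, against 10.4% for EGR1. Since these genes were chosen from this contrast, these counts and shares are only a description.

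Ratios of 2 genes within a library, per exon base, need no scaling between libraries. EGR1 per EGR2 was 0.117, 0.120 and 0.115 in KD and 1.05, 1.09 and 1.12 in NC, a ratio 9.23-fold lower in KD. EGR1 per NAB2 was 0.116 ± 0.00232 in KD and 1.05 ± 0.0518 in NC (SD, n = 3 each). EGR1 per SRF was 0.144 ± 0.00576 in KD and 1.149 ± 0.0396 in NC. EGR1 per EGR3 was 5.14, 5.19 and 6.19 in KD and 24.6, 33.6 and 38.5 in NC, a ratio 5.85-fold lower in KD with a wide spread in NC. These 4 ratios did not overlap between the groups. The ratios without EGR1 that are given here differed by at most 1.37-fold, and other pairs were not computed. EGR2 per NAB2 was 0.987 ± 0.0187 in KD and 0.965 ± 0.0339 in NC, and its groups overlapped. EGR2 per SRF was 1.23 ± 0.0513 in KD and 1.06 ± 0.00538 in NC, SRF per NAB2 0.804 ± 0.0189 in KD and 0.910 ± 0.0365 in NC, and NAB1 per SRF 0.528 ± 0.0164 in KD and 0.638 ± 0.0172 in NC, each without overlap. The inducible corepressor gained on the constant one, with NAB2 per NAB1 at 2.36 ± 0.104 in KD and 1.72 ± 0.0279 in NC.

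**Figure D3:**
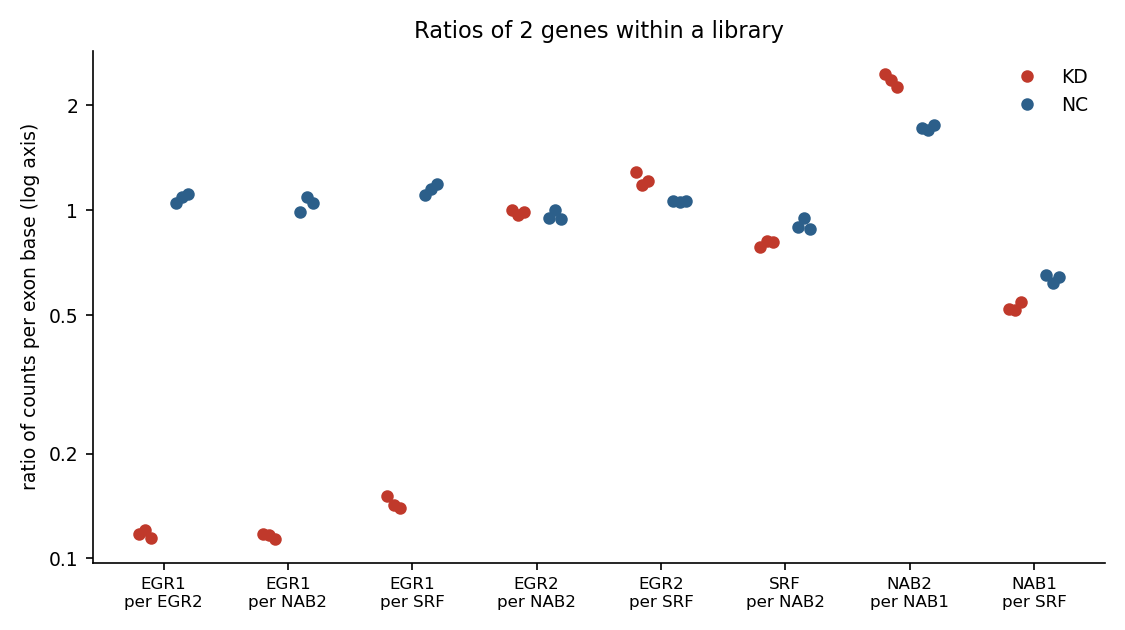
Ratios of counts per exon base of 2 genes within each library, on a log axis, with the 3 KD libraries left of the 3 NC libraries for each ratio. The ratios of EGR1 to EGR2, NAB2 and SRF lie at 0.113 to 0.151 in KD and 0.991 to 1.19 in NC, while the groups of the other 5 lie within a factor of 1.37 of each other.

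The order of the levels per exon base differed between the groups. In KD, NAB2 (31.5 RPKM on the TMM scale) and EGR2 (31.1 RPKM) led without being apart, followed by SRF (25.3 RPKM), NAB1 (13.4 RPKM), EGR1 (3.65 RPKM), EGR3 (0.670 RPKM) and EGR4 (0.0214 RPKM), each apart from its neighbour. In NC, EGR1 (18.3 RPKM), NAB2 (17.5 RPKM), EGR2 (16.9 RPKM) and SRF (15.9 RPKM) came first, and each overlapped the next in that order. NAB1 (10.2 RPKM), EGR3 (0.586 RPKM) and EGR4 (0.00666 RPKM) followed. EGR1 was above 64.5% of the tested genes in KD and above 89.2% in NC, whereas SRF was above 91.2% in KD and 87.8% in NC.

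The promoters are shown for the sites that link these genes. RefSeq start sites on GRCh38.p14 were found for 6 of the 7 genes, EGR3 being the other, and the 250 bases before each start were searched for the CArG box, the binding site of SRF, which reads the same on both strands. EGR1 held 2 boxes, EGR2 held 1 before 1 of its 3 starts, and SRF itself held 2 before the first of its 2 starts. The windows are chr5:138465229-138465478 (plus strand) for EGR1, chr10:62816367-62816616 (minus strand) for EGR2 and chr6:43171019-43171268 (plus strand) for SRF, printed 5′ to 3′ on the strand of the gene. Capitals mark CArG boxes and, in SRF, also 1 EGR site.
EGR1: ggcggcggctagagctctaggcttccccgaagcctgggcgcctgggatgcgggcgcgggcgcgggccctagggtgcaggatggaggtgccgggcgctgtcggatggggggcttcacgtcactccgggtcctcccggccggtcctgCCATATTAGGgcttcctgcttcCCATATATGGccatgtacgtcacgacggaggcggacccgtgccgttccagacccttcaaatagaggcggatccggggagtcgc
EGR2: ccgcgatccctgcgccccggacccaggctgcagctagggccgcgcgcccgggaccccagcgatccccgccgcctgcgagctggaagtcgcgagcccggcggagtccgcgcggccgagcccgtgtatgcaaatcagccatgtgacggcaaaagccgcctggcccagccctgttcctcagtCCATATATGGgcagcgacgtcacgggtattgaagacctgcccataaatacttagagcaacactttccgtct
SRF: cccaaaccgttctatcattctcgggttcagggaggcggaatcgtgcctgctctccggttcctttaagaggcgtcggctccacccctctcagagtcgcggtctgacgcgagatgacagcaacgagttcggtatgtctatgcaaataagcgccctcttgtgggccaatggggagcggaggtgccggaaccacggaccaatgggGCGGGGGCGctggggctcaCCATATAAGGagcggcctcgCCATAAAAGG

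The EGR1 boxes read CCATATTAGG, 105 to 96 bases before the start, and CCATATATGG, 83 to 74 bases before it. EGR2 carried the same CCATATATGG, 71 to 62 bases before that start. The SRF boxes, CCATATAAGG and CCATAAAAGG, lay 30 to 21 and 10 to 1 bases before the start. No CArG box was found in the windows of EGR4, NAB1 or NAB2, though 153 of the 250 bases of the EGR4 window are EGR4 exon in the deposited coordinates. Of 27305 genes with such windows, 1.44% held a CArG box. EGR1, which was lower in KD, and EGR2 and SRF, which were higher on the TMM scale, thus shared this motif.

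EGR sites were searched on both strands as GCGTGGGCG and as GCGGGGGCG, which 0.886% and 5.74% of the same genes held. NAB1 carried both forms, NAB2 and SRF carried GCGGGGGCG, and neither form was found before EGR1, EGR2 or EGR4. Each match overlapped GGGCGG, the GC box that factors of the SP family bind. The 29 bases around 1 site are shown for each corepressor, from chr2:190648898-190648926 and chr12:57089042-57089070 (both plus strand), with the site in capitals. The NAB1 site lies 175 to 167 bases before its second start and the NAB2 site 62 to 54 bases before its start. Of these windows, 90 bases for NAB1 and 71 for NAB2 are exon of the same gene in the deposited coordinates. The NAB1 site lies after the first NAB1 start (190648895). NAB2 begins at 57089043 in those coordinates, so its site lies within the gene there. A match is a string of letters and does not show that a factor was bound.
NAB1: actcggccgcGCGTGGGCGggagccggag
NAB2: tgtgcgtcctGCGGGGGCGgaggcgcgga

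**Figure D4:**
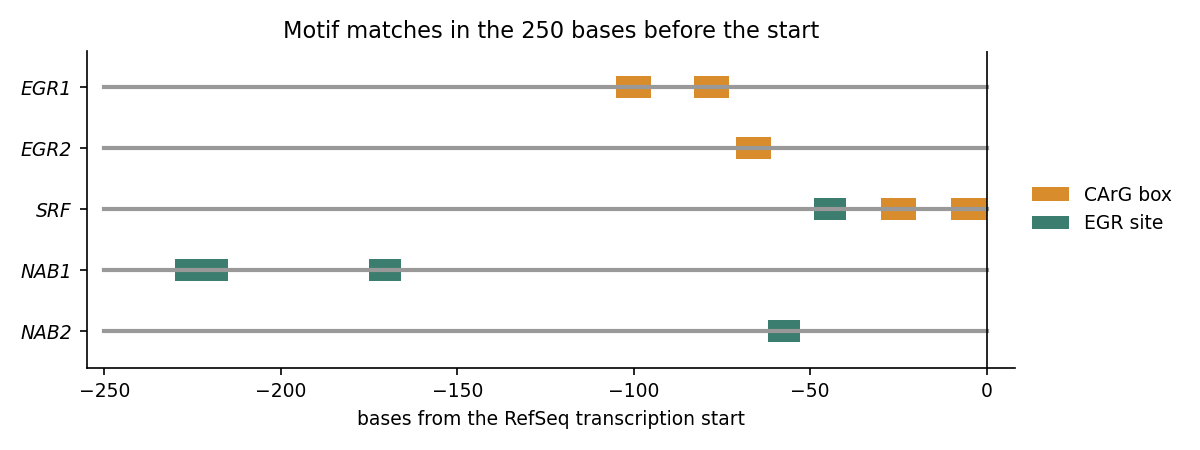
Position of motif matches in the 250 bases before a RefSeq start of 5 genes, in bases from the start at 0. CArG boxes (orange) stand before EGR1, EGR2 and SRF, and EGR sites (green) before SRF, NAB1 and NAB2.

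Other immediate-early genes, transcripts that a stimulus induces without new protein synthesis, were compared because EGR1 is usually counted among them. All 33 listed genes were tested: 26 were higher and 5 lower in KD, and 2 did not pass (edgeR adjusted p at or below 0.05, against 36.2% higher and 40.3% lower among all tested genes). Their median log2 fold change was 0.90. This direction was part of the choice of EGR1 and supports nothing here. PHLDA1, a growth-arrest and apoptosis regulator, averaged 398 ± 14.3 CPM in KD and 146 ± 4.51 CPM in NC (log2 fold change 1.45, SE 0.0428, edgeR adjusted p = 6.75e-20), and the pseudokinase gene TRIB1 92.7 ± 0.586 CPM in KD and 37.6 ± 0.799 CPM in NC (1.30, SE 0.0432, edgeR adjusted p = 6.38e-19). Both stayed higher on the leukocyte scale.

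The genes that went with EGR1 were few. GADD45B, a stress-response gene, averaged 10.3 ± 0.163 CPM in KD and 21.5 ± 1.30 CPM in NC (log2 fold change -1.07, SE 0.0735, edgeR adjusted p = 1.54e-12). NR4A1, an orphan nuclear receptor induced by the same kinds of stimuli as EGR1, had 12, 14 and 2 counts in KD and 154, 144 and 163 in NC (log2 fold change -3.90, SE 0.287, edgeR adjusted p = 5.69e-12). It was the only gene of the 33 with a lower log2 fold change than EGR1. The other 3 that were lower, named after their values were seen, were ARC (-0.92), IER5 (-0.32) and IER2 (-0.17). FOS, another classical SRF target and also named after its values were seen, went against EGR1: it had 1346, 1286 and 1340 counts in KD and 540, 488 and 594 in NC. The leukocyte scale placed 5 of the 33 higher and 20 lower, beside 3.63% and 83.1% of all tested genes, with a median of -0.29.

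**Figure D5:**
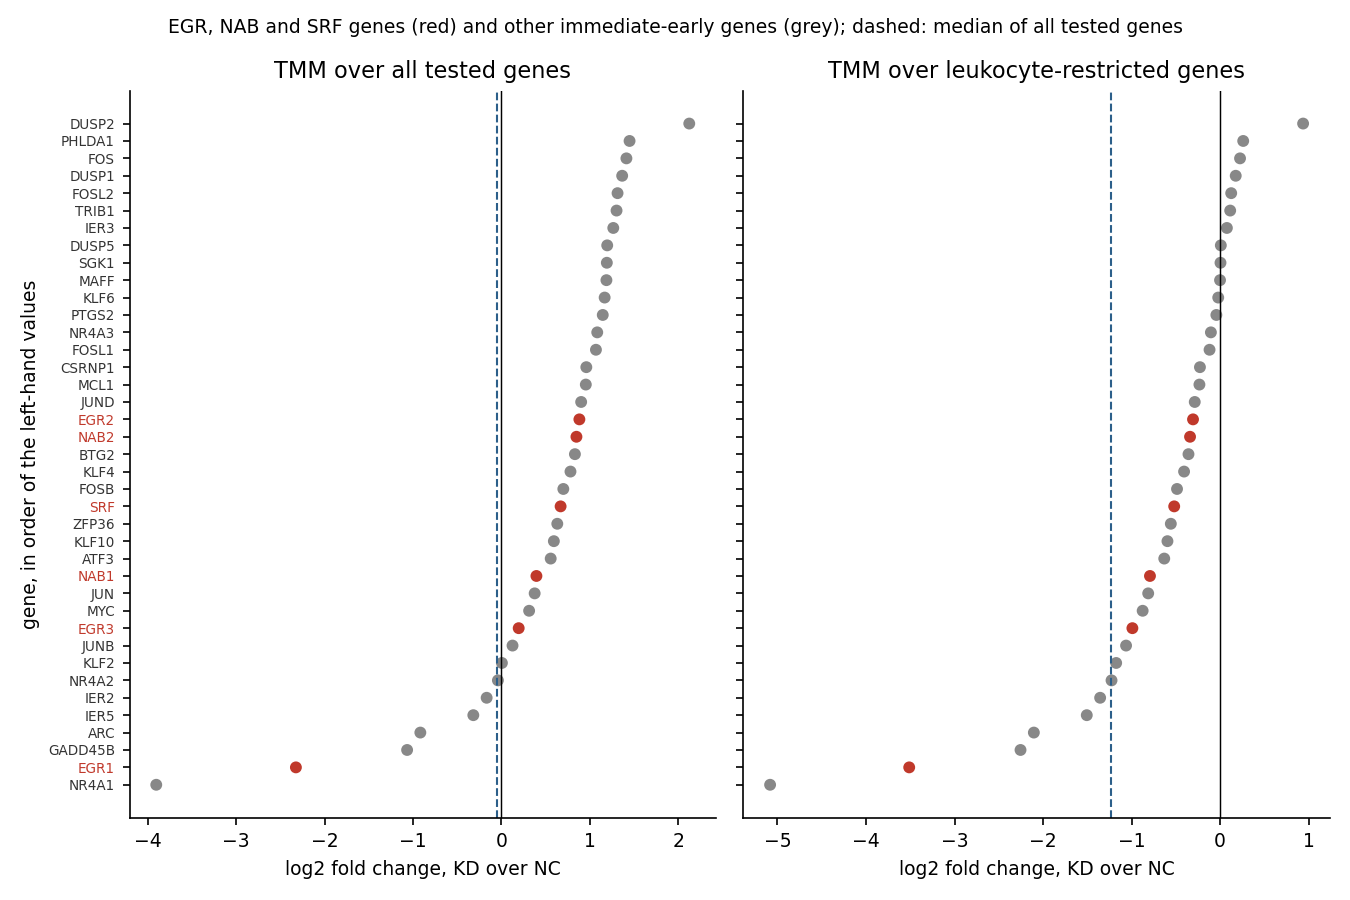
Log2 fold changes, KD over NC, of the 6 EGR, NAB and SRF genes that passed the filter (red) and of 33 other immediate-early genes (grey), with TMM (left) and on the leukocyte scale (right). The dashed line is the median of all tested genes, at -0.05 and -1.23. EGR1, at -2.32 and -3.51, lies above NR4A1 only, and EGR2, NAB2, SRF and NAB1 lie right of 0 on the left and left of 0 on the right.

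Factors that act with SRF include ETS proteins and actin-regulated coactivators. Of 8 listed, 7 were tested, and 4 were higher and 3 lower in KD, beside 36.2% and 40.3% of all tested genes, with a median log2 fold change of 0.29. The ETS-type partner ELK3 averaged 24.8 ± 1.17 CPM in KD and 14.9 ± 1.09 CPM in NC (log2 fold change 0.74, SE 0.0695, edgeR adjusted p = 6.84e-10), and the actin-regulated coactivator MRTFA 24.4 ± 0.305 CPM in KD and 17.2 ± 0.284 CPM in NC (0.51, SE 0.0619, edgeR adjusted p = 6.70e-08). ELK1, the partner that ERK phosphorylates at the EGR1 promoter, was lower, at 8.33 ± 0.148 CPM in KD and 17.1 ± 0.954 CPM in NC (-1.04, SE 0.0792, edgeR adjusted p = 1.12e-11). SCAI, a suppressor of MRTF activity, was lower too, at 0.906 ± 0.0826 CPM in KD and 3.28 ± 0.531 CPM in NC (-1.85, SE 0.196, edgeR adjusted p = 5.49e-09). The muscle coactivator MYOCD had no count in KD and 8, 4 and 6 in NC and was not tested. All 7 were lower on the leukocyte scale, as were 83.1% of all tested genes, with ELK3 at -0.45 and MRTFA at -0.68.

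Cytoskeletal targets of SRF, the actin-linked arm of its program, included FLNA, which had the largest log2 fold change in either direction among the listed genes tested. Of 25 genes, 22 were tested, with a median log2 fold change of 0.48. In KD 13 were higher and 8 lower, beside 36.2% and 40.3% of all tested genes. The actin cross-linker ACTN1 averaged 838 ± 7.25 CPM in KD and 397 ± 7.46 CPM in NC (log2 fold change 1.08, SE 0.0411, edgeR adjusted p = 1.00e-17), and the tropomyosin TPM4 2354 ± 87.3 CPM in KD and 1061 ± 56.5 CPM in NC (1.15, SE 0.0483, edgeR adjusted p = 6.97e-17). Filamin A (FLNA), another actin cross-linker, was lower, at 2.47 ± 0.504 CPM in KD and 204 ± 7.79 CPM in NC (-6.36, SE 0.0750, edgeR adjusted p = 3.12e-27). The LIM protein FHL1 had 52, 35 and 38 counts in KD and 511, 581 and 630 in NC (-3.66, SE 0.138, edgeR adjusted p = 7.78e-18). Of the 21 genes of this list with a promoter window, 9 (42.9%) held a CArG box, and these 9 included ACTN1 and TPM4 as well as FLNA and FHL1. Over all genes with windows the share was 1.44%, and in the other lists searched well enough it was 0% to 14.3%. The 14.3% is 1 gene of 7, FHL2, among the SRF partners. The list was made of SRF targets and the CArG box is the site of SRF, so its share is only a description. For the immediate-early genes and the reported EGR1 targets the search is void, since only 72.7% and 60.7% of them had a window. The leukocyte scale placed 0 higher and 20 lower, beside 3.63% and 83.1% of all tested genes, with ACTN1 at -0.11 and TPM4 at -0.04.

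Genes reported as EGR1 targets in human or mouse cells were mostly higher in KD with TMM, while EGR1 itself was lower. All 28 were tested, with a median log2 fold change of 1.27. Of these 21 were higher and 5 lower in KD, beside 36.2% and 40.3% of all tested genes. The matrix gene FN1 averaged 339 ± 6.87 CPM in KD and 88.0 ± 1.57 CPM in NC (log2 fold change 1.94, SE 0.0411, edgeR adjusted p = 1.25e-22), and the growth factor gene HBEGF 380 ± 9.68 CPM in KD and 111 ± 1.53 CPM in NC (1.77, SE 0.0411, edgeR adjusted p = 6.69e-22). The growth factor gene IGF2 was at 1.47 ± 0.0530 CPM in KD and 51.4 ± 7.98 CPM in NC (-5.12, SE 0.126, edgeR adjusted p = 1.12e-16). On the leukocyte scale 12 were higher and 12 lower, beside 3.63% and 83.1% of all tested genes, with a median of 0.08. FN1 (0.75) and HBEGF (0.59) were still higher.

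The cascade that leads to EGR1 was measured from adaptors to ERK-activated kinases. Of 21 genes 15 were higher and 3 lower in KD, beside 36.2% and 40.3% of all tested genes. The median log2 fold change of the 21 was 0.33. The ribosomal S6 kinase RPS6KA1 averaged 109 ± 3.71 CPM in KD and 42.0 ± 2.06 CPM in NC (log2 fold change 1.37, SE 0.0461, edgeR adjusted p = 7.65e-19), and RPS6KA3 175 ± 0.456 CPM in KD and 94.4 ± 4.66 CPM in NC (0.89, SE 0.0422, edgeR adjusted p = 7.40e-16). The scaffold KSR1 (2.67 ± 1.01 CPM in KD and 5.90 ± 0.316 CPM in NC, -1.14, edgeR adjusted p = 5.08e-06) and the kinase RPS6KA5 (9.27 ± 0.0942 CPM in KD and 15.1 ± 0.843 CPM in NC, -0.71, edgeR adjusted p = 1.60e-08) were lower. Scaled by library size alone, 11 genes were higher and 5 lower, beside 28.4% and 47.3% of all tested genes. On the leukocyte scale 1, RPS6KA1, was higher and 20 lower, beside 3.63% and 83.1% of all tested genes.

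Inhibitors of Ras and ERK signalling, not all of which act as feedback, had 10 higher and 1 lower of 12 in KD. Over all tested genes the shares were 36.2% and 40.3%. The median log2 fold change of the 12 was 0.88. SPRY2, a Sprouty inhibitor, averaged 206 ± 5.71 CPM in KD and 86.2 ± 2.44 CPM in NC (log2 fold change 1.26, SE 0.0414, edgeR adjusted p = 5.30e-19), and the Ras GTPase activator RASA3 86.7 ± 3.40 CPM in KD and 34.5 ± 1.40 CPM in NC (1.33, SE 0.0475, edgeR adjusted p = 2.68e-18). SPRY1 alone was lower, at 1.30 ± 0.297 CPM in KD and 3.62 ± 0.155 CPM in NC (-1.47, SE 0.181, edgeR adjusted p = 7.35e-08). The leukocyte scale left 1 higher and 7 lower, beside 3.63% and 83.1% of all tested genes, and SPRY2 (0.07) did not pass.

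NAB proteins are known to repress through the NuRD complex. Of 13 NuRD genes 4 were higher and 7 lower in KD, beside 36.2% and 40.3% of all tested genes, with a median log2 fold change of -0.11. The histone-binding subunit RBBP7 averaged 97.2 ± 3.69 CPM in KD and 274 ± 9.92 CPM in NC (log2 fold change -1.50, SE 0.0433, edgeR adjusted p = 4.66e-20), and MTA3 2.02 ± 0.321 CPM in KD and 13.0 ± 0.431 CPM in NC (-2.68, SE 0.118, edgeR adjusted p = 1.70e-16). MBD2 averaged 171 ± 3.49 CPM in KD and 88.2 ± 5.06 CPM in NC (0.95, SE 0.0440, edgeR adjusted p = 4.65e-16), and GATAD2B 53.7 ± 1.66 CPM in KD and 41.0 ± 2.03 CPM in NC (0.39, SE 0.0493, edgeR adjusted p = 1.19e-07). CHD4, the subunit that NAB2 is known to bind, named after its values were seen, was at 811 CPM in KD and 878 CPM in NC (-0.11, SE 0.0485, edgeR adjusted p = 0.0372). All 13 were lower on the leukocyte scale, as were 83.1% of all tested genes.

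Other zinc finger factors of GC-rich sites had 9 higher and 2 lower of 11, beside 36.2% and 40.3% of all tested genes. The median log2 fold change of the 11 was 0.49. KLF9 averaged 71.3 ± 0.188 CPM in KD and 40.6 ± 1.42 CPM in NC (log2 fold change 0.81, SE 0.0450, edgeR adjusted p = 1.89e-14), and KLF3 41.5 ± 1.57 CPM in KD and 21.0 ± 1.70 CPM in NC (0.98, SE 0.0605, edgeR adjusted p = 1.70e-13). KLF5 (7.85 ± 0.572 CPM in KD and 15.9 ± 1.17 CPM in NC, -1.01, edgeR adjusted p = 9.47e-11) and SP4 (1.57 ± 0.123 CPM in KD and 3.76 ± 0.739 CPM in NC, -1.26, edgeR adjusted p = 6.45e-07) were lower. The leukocyte scale had 10 of the 11 lower and 0 higher, beside 83.1% and 3.63% of all tested genes.

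The genes closest to EGR1 over the 6 libraries were sought among 10032 other protein-coding genes with a mean of at least 5 CPM, by the Euclidean distance of centred log2 CPM. The 5 nearest were the apoptotic nuclease inhibitor DFFA (distance 0.0857), the centromere cohesion protector SGO1 (0.114), the mitochondrial lipid kinase AGK (0.122), TUFT1 (0.145) and the synaptic scaffold DLG3 (0.155). DFFA averaged 23.1 ± 0.209 CPM in KD and 112 ± 1.38 CPM in NC, and SGO1 6.47 ± 0.0511 CPM in KD and 31.9 ± 0.736 CPM in NC (SD, n = 3 each). A distance of 0.5 or less was found for 213 genes, 2.12% of those ranked. None of the other members was near EGR1: NAB1 had rank 6673 (distance 3.27), SRF 7846, NAB2 8492 (3.82) and EGR2 8600 (3.86), and EGR3, under 5 CPM, was at 3.03. With libraries of a group close together, this distance mostly follows the difference between KD and NC. The members were chosen from that difference, so their ranks are only a description.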

How the data were processed

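RNA was harvested with Vezol reagent and libraries were made for DNBSEQ-T7 sequencing, per the labels' protocols. The submitters' processing notes name fastp 0.23.0 and the build GRCh38. The aligner, the counter and its strand setting, and the annotation release are not given in the sources here. The authors deposited raw whole-number counts per gene with exon coordinates and exon length. Genes that share exons can hold the same reads.

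Changes were fitted with edgeR 4.0.16 in R 4.3.3 (filterByExpr, TMM, robust quasi-likelihood test, 21905 genes, Benjamini-Hochberg adjustment, threshold 0.05, two-sided). CPM and RPKM were computed from the counts with TMM, marker sums with library size alone. SEs were derived from the log2 fold change and the F statistic. The fit was tested on simulated data with few changed genes, balanced in direction, which does not bear on the choice of scaling. No within-group pair held identical counts (chi-square per degree of freedom 3.11 to 5.96). The members, gene lists, marker lists and leukocyte scale were chosen with earlier results of these data known, and no list test was run. Named list genes are the 2 smallest p-values in each direction of a list (1 named gene is not reported here), and the 5 genes nearest to EGR1 used log2(CPM + 0.5). Alternatives were DESeq2 1.42.0 and its size factors, limma-voom (limma 3.58.1), library sizes alone, the leukocyte scale, 2 other filters, no robust estimation, a replicate block, an adjusted p of 0.01 and leaving out each library. Promoter sequences are from RefSeq, GRCh38.p14. Scripts also used Python 3.11.15.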

Additional observations from a re-analysis of the deposited data

How the results depend on the processing

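No alternative other than the scaling moved the log2 fold change of the 6 members that passed the filter beyond the spread between replicates; EGR4 has no such value. With library sizes alone the log2 fold changes were -2.51 for EGR1, 0.69 for EGR2, 0.21 for NAB1, 0.66 for NAB2 and 0.48 for SRF, and 5 genes of the Ras-ERK cascade were lower in KD in place of 3. On the leukocyte scale EGR1 was at -3.51 and EGR3 at -0.99, and the signs turned for EGR2 (-0.31), NAB1 (-0.79), NAB2 (-0.34), SRF (-0.52), ELK3 (-0.45), MRTFA (-0.68), ACTN1 (-0.11), TPM4 (-0.0387), RPS6KA3 (-0.29), MBD2 (-0.24), GATAD2B (-0.80), KLF9 (-0.38) and KLF3 (-0.21). The counts higher and lower in KD were then 5 and 20 for immediate-early genes, 0 and 7 for SRF partners, 0 and 20 for cytoskeletal SRF targets, 12 and 12 for reported EGR1 targets, 1 and 20 for the Ras-ERK cascade, 1 and 7 for its inhibitors, 0 and 13 for NuRD subunits and 0 and 10 for GC-box factors. Of all tested genes 3.63% were higher and 83.1% lower on that scale. That scale moves all genes downwards by construction, and which scaling is right was not tested.

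Over the other 14 settings the log2 fold change of EGR1 ran from -2.51 to -2.28 and that of EGR3 from 0.0081 to 0.37. Same-numbered KD and NC libraries had a Pearson r across genes of 0.0787, 0.0418 and -0.182, and unlike-numbered ones of -0.264 to 0.243. Each group was centred on its own 3 libraries, so these values cannot show whether the numbers pair the samples. With the replicate block EGR1 was at -2.32 and 16428 genes passed in place of 16758. The depth of EGR4, 8 counts in all, allows no statement on a difference.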
